A study of Mus musculus with 2 samples.

Results

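The very long chain fatty acid elongases of the mouse are a family of 7 genes, *Elovl1* to *Elovl7*, out of the 32285 genes counted in the cells of mouse dorsal skin (back skin) and of the preputial gland (PG). The members were taken by gene symbol, and the family was chosen by the level of *Elovl6*, which was already known to differ in these data between sebocytes (SEB) of skin (sSEB) and of PG (pSEB), so the values of that contrast are given as a description. Both tissues came from the same kind of animal, male wild type C57BL/6 mice aged 52 weeks for which no treatment is named, and the back skin biopsies and whole glands of 3 mice were pooled by tissue before the cells were encapsulated. Each tissue is therefore 1 droplet-based 3′ library without replicates, the libraries hold cells of several mice that cannot be separated, and the tissue and the library cannot be told apart. Intervals are exact 95% intervals that cover the counting of unique molecular identifiers (UMIs) only, and no p-value is given.

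Elongases carry out the first and rate-limiting step of the cycle in the endoplasmic reticulum that lengthens fatty acyl chains, a condensation with malonyl-CoA, after which the ketoacyl reductase *Hsd17b12*, the dehydratases *Hacd1* to *Hacd4* and the enoyl reductase *Tecr* complete each round. *Elovl6* lengthens palmitate to stearate, *Elovl1*, *Elovl3* and *Elovl7* act on saturated and monounsaturated chains, *Elovl2* and *Elovl5* on polyunsaturated chains, and *Elovl4* makes the ultra-long chains of the acylceramides of the epidermal barrier. In skin, such chains enter the wax and sterol esters and triglycerides of sebum and the ceramides of the cornified envelope.

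On the GRCm38 build, which is the mm10 build named in the submitters' notes, the genes lie on 5 chromosomes. *Elovl6* (ENSMUSG00000041220, chr3:129532355-129638495, + strand) and *Elovl4* (ENSMUSG00000032262, chr9:83778692-83806277, − strand) gave the most UMIs in sSEB, and *Elovl1* (ENSMUSG00000006390, chr4:118428093-118432953, + strand) gave the most in pSEB. *Elovl3* lies at chr19:46131897-46135694 (ENSMUSG00000038754, + strand), *Elovl5* at chr9:77917364-77984519 (ENSMUSG00000032349, + strand), *Elovl7* at chr13:108214404-108285683 (ENSMUSG00000021696, + strand) and *Elovl2* at chr13:41182381-41220405 (ENSMUSG00000021364, − strand). None of the 7 overlaps another gene on its own strand that the files count, but *Elovl1* overlaps *Cdc20*, *Elovl3* overlaps *Pitx3* and *Elovl6* overlaps the antisense gene *Gm35986* on the opposite strand. The promoters of the 3 members on which the results turn are shown because these genes peaked in different cells, *Elovl6* in sSEB, *Elovl1* in granular keratinocytes and *Elovl4* in 2 sSEB and in the upper epidermal layers. RefSeq (GRCm38.p6) gave promoters for 6 of the 7 members, with *Elovl3* as the exception. Each sequence reads 5′ to 3′ on the strand of the gene, ends before the annotated start, and has in capitals the matches on either strand to CCAAT, the E-box CACGTG, the GC box GGGCGG and TCACNCCAC, a sterol regulatory element.
Elovl6, chr3:129532136-129532354, + strand: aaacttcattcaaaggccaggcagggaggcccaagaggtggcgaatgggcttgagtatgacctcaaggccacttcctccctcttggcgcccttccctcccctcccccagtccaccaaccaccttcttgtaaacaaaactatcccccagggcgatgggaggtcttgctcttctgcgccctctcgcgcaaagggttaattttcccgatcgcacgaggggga
Elovl4, chr9:83806306-83806555, − strand: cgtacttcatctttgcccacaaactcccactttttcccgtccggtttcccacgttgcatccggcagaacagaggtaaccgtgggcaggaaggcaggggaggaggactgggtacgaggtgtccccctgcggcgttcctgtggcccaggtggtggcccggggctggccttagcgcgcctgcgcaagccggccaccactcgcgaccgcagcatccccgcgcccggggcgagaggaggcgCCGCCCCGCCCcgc
Elovl1, chr4:118427843-118428092, + strand: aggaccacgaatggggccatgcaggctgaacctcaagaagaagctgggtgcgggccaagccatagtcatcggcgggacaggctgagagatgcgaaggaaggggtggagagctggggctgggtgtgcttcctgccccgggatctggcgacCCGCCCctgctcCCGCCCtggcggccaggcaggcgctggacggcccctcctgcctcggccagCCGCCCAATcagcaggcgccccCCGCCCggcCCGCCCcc
The 250 bases before the start of *Elovl6* held no match to any of the 4 motifs, and the last bases of that window, which lie in the annotated gene, are not printed. The *Elovl4* promoter held 2 matches to GGGCGG, which overlap each other, and the first *Elovl1* promoter held 5 matches to GGGCGG and 1 to CCAAT, which overlaps 1 of the GC boxes. Of all 32851 promoters of this length, 32.7% held GGGCGG, 33.8% CCAAT, 6.02% CACGTG and 1.05% TCACNCCAC. These matches describe the letters in the window and were not tied to the levels below.

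The skin library held 8899 cells with a median of 2386 UMIs and the PG library 4699 cells with a median of 2729 UMIs, after barcodes with under 500 genes, under 1000 UMIs or over 10% mitochondrial UMIs had been left out. The lists of possible barcodes differ between the libraries (6794880 and 737280 barcodes), so the chemistry may differ and cannot be told apart from the tissue, and no barcode was kept as a cell in both. Cells were assigned to 13 classes by the share of their UMIs that came from marker genes, none of them an *Elovl* gene, with limits set after the marker shares had been seen. A class is thus a range of a marker score, not a type, and the names below stand for cells in that range. Sebocytes needed at least 3 of 7 markers and at least 40 marker UMIs per 10000, which 17 skin cells (90916 UMIs in all, median 4426) and 667 PG cells (3771691 UMIs in all, median 5453) met. Of these, 1 sSEB and 53 pSEB lay within 20% of that limit. When the cells were clustered instead, 23 skin and 893 PG cells were in clusters named sebocytes, and 10 and 587 of them were also in the gate. The genes given next, *Scd1* and *Awat2*, are among the 7 markers of the gate, so their levels follow from it and do not test what the cells are. *Scd1*, the stearoyl-CoA desaturase, stood at 7666 CPM (UMIs of the gene per 1000000 UMIs of the class) in sSEB and at 75.5 CPM in the other skin cells, and at 3679 and 237 CPM in pSEB and the other PG cells. The wax synthase *Awat2* was found in 6 of 17 sSEB and 110 of 667 pSEB. The median share of hair matrix, inner root sheath, granular, suprabasal, fibroblast and immune markers was 0 in both groups. Basal keratinocyte markers had medians of 16.6 per 10000 in sSEB and 11.3 in pSEB, and upper follicle and duct markers had 16.6 and 3.84. The median sebocyte marker share itself was 160 per 10000 in sSEB and 91.4 in pSEB.

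The summed elongase UMIs were a larger share in sSEB than in pSEB, mostly through 2 members. In sSEB 59.0% of the sum was *Elovl6*, by which the family was chosen, and 33.2% was *Elovl4*. The sums are thus a description and no result for the family as a whole. In sSEB the family summed to 741 UMIs, which is 8150 CPM (7574 to 8759), and in pSEB to 220 UMIs, which is 58.3 CPM (50.9 to 66.6). Without 2 sSEB that held most of the *Elovl4* UMIs, the sum in sSEB was 380 UMIs or 4964 CPM (4478 to 5489), most of it *Elovl6*. *Elovl6*, *Elovl4*, *Elovl3* and *Elovl5* made up all but 2 UMIs of this sum in sSEB, while *Elovl1* alone gave 162 of the 220 UMIs in pSEB. UMIs of a 3′ library are tags of transcript ends and are not divided by gene length, so shares within the family describe UMIs, not amounts of enzyme.

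*Elovl6*, the elongase of palmitate, gave 437 UMIs in sSEB (4807 CPM, 4366 to 5279) and 8 UMIs in pSEB (2.12 CPM, 0.916 to 4.18). Every one of the 17 sSEB held the transcript, with 1 UMI in the lowest cell, 12 in the median cell and 144 in the highest, whereas 6 of the 667 pSEB held any and none held more than 2. The highest pSEB thus fell among the lowest sSEB, and the log2 ratio of pSEB over sSEB was −11.15 (−12.37 to −10.15), which is a level 2266-fold higher in sSEB. Among the 4513 genes with enough UMIs for this ratio, 5 had a lower one. After every cell had been thinned to 1000 UMIs, 13 of 17 sSEB and 2 of 667 pSEB still held a UMI. Fibroblasts of the same PG library, which make no sebum, held *Elovl6* UMIs in 10 of 603 cells (1.66%, median 1370 UMIs per cell). In pSEB the share was 0.900% (median 5453 UMIs), so it lay below that of a class outside the sebocytes. At the estimated free RNA share of 12.7%, the free RNA of the PG library would give 1.94 UMIs. That share came from fibroblasts and immune cells. It was too high for *Elovl4* in pSEB, where it would give 24.5 UMIs and 0 were seen, so the 1.94 is not a reliable value. The antisense gene *Gm35986* gave 14 UMIs in sSEB and 0 in pSEB, and if counting had ignored strand these could not be told apart from *Elovl6* reads.

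*Elovl3*, an elongase known from sebaceous gland and brown fat, gave 31 UMIs in sSEB (341 CPM, 232 to 484) and 21 in pSEB (5.57 CPM, 3.45 to 8.51). It was found in 10 of 17 sSEB, with up to 12 UMIs in a cell, and in 11 of 667 pSEB, with up to 5. The log2 ratio was −5.94 (−6.81 to −5.09). Most of its UMIs lay in sebocytes, 31 of the 43 UMIs of the skin cells and 21 of the 25 of the PG cells, although few pSEB held it.

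*Elovl4*, which makes ultra-long chains, gave the most UMIs in sSEB after *Elovl6*, but was spread over the cells unlike *Elovl6*. Of its 246 UMIs in sSEB (2706 CPM), 245 lay in 2 cells with 104 and 141 UMIs, another cell had 1, and the other 14 had 0. In pSEB it was at 0 UMIs, where 3 counts would be 0.795 CPM, so the log2 ratio was at most −11.73, but it rested on those 2 cells. Without them the counts were 1 in sSEB and 0 in pSEB and no ratio can be formed. The 2 cells differed from each other. The first held 79 UMIs of *Elovl6*, 12 of *Elovl3* and 1 of *Elovl5* among 9942 UMIs, and the other held 3 of *Elovl6*, 3 of *Elovl3* and 18 of *Elovl5* among 4426. The 0 of pSEB lay below the free RNA of that library, which would have given 24.5 UMIs at its estimated share of 12.7%, with 0 seen. That share was estimated in fibroblasts and immune cells and was thus too high for *Elovl4* in pSEB.

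*Elovl5*, an elongase of polyunsaturated chains, gave 25 UMIs in sSEB (275 CPM, 178 to 406) and 26 in pSEB (6.89 CPM, 4.50 to 10.1). The log2 ratio was −5.32 (−6.17 to −4.47). In sSEB 18 of the UMIs lay in the cell with 141 *Elovl4* UMIs, and without the 2 cells rich in *Elovl4* the ratio was −3.51. In pSEB the UMIs were spread over 26 cells with 1 each.

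*Elovl1*, which lengthens saturated chains, was not called in either direction. It gave 2 UMIs in sSEB (22.0 CPM, 2.66 to 79.5) and 162 in pSEB (43.0 CPM, 36.6 to 50.1), with a log2 ratio of 0.97 (−0.91 to 4.02), so a difference was not detectable at this depth. It was found in 128 of 667 pSEB with up to 4 UMIs in a cell. *Elovl7* was at 0 UMIs in sSEB and at 3 in pSEB, and *Elovl2*, known from liver and retina, had a single UMI in all skin cells kept and 0 in PG. Of the 5 members with enough UMIs, 0 were called higher and 4 lower in pSEB, where a call means a ratio of at least 2-fold whose interval leaves out equal levels. Over all 4513 genes 7.33% were called higher and 13.2% lower, and the median log2 ratio was −0.15. As 3 UMIs are 33.0 CPM in sSEB, the 4 members called lower had enough UMIs through sSEB alone. They could thus be called in that direction only. The 4 include *Elovl6*, by which the family was chosen, and *Elovl4*, which rests on 2 cells, so the count is a description.

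**Figure D1:**
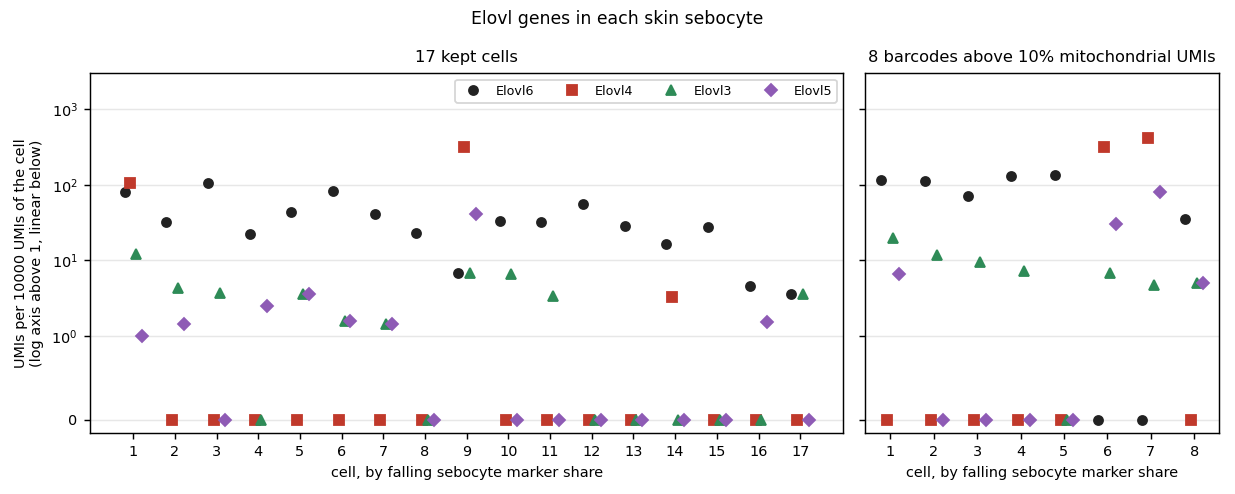
*Elovl6*, *Elovl4*, *Elovl3* and *Elovl5* in each sSEB, as UMIs per 10000 UMIs of the cell on an axis that is logarithmic above 1 and linear below. The left panel holds the 17 kept cells, ordered by falling sebocyte marker share, and the right panel 8 further skin barcodes in the sebocyte gate with over 10% mitochondrial UMIs. *Elovl6* is above 0 in all 17 kept cells, while high *Elovl4* is seen in 2 kept cells and in 2 of the 8 barcodes.

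Within sSEB, *Elovl6* ranged from 3.64 to 107 UMIs per 10000, with a median of 32.0. The lowest values were found in cells with the smallest sebocyte marker shares and in the cell richest in *Elovl4*. In the 2 cells at the lower end of the gate, most sebocyte marker UMIs came from the sterol acyltransferase *Soat1* (34 of 42 and 11 of 13, respectively), and these cells held 3 and 1 UMIs of *Elovl6*. *Elovl3* was detected together with *Elovl6* in 10 of 17 cells, and *Elovl5* with *Elovl6* in 8.

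The skin barcodes left out for a high mitochondrial share held a second set of such cells. Of these, 8 barcodes with 17604 UMIs met the sebocyte gate, and 6 of them held between 7 and 35 UMIs of *Elovl6* and none of *Elovl4*. The other 2 were at 0 for *Elovl6* and held 93 and 88 UMIs of *Elovl4* and 9 and 17 of *Elovl5*, at 35.3% and 27.0% mitochondrial UMIs. Over all 25 skin barcodes in the gate, *Elovl6* stood at 5188 CPM and was found in 23, and *Elovl4* stood at 3935 CPM and was found in 5. *Elovl4* was thus high in 4 of 25 barcodes, 3 of which had 0 or 3 UMIs of *Elovl6*. What sets these barcodes apart was not tested. In PG, 149 barcodes over the mitochondrial limit met the gate, and *Elovl6* and *Elovl4* had 1 UMI each in them (1.96 CPM).

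Compared with the other gated cells of the same library, sebocytes of skin and PG differed in which elongases stood out. In skin 5 members had enough UMIs, of which 4 were higher in sSEB and 1 lower, while 15.7% of 4982 genes were higher and 9.76% lower. *Elovl3* and *Elovl5* had enough through their level in sSEB alone, and *Elovl1* through that of the other cells. *Elovl3* was at 341 against 0.337 CPM (log2 9.98, 8.83 to 11.31) and *Elovl6* at 4807 against 33.8 CPM (log2 7.15, 6.98 to 7.32). *Elovl4*, at 2706 against 92.1 CPM, gave 4.88 (4.68 to 5.07), and *Elovl5*, at 275 against 10.8 CPM, gave 4.68 (4.02 to 5.27). The *Elovl4* value turned around without the 2 cells that carry it, to −2.82, with 1 UMI in sSEB. For *Elovl5*, 18 of the 25 UMIs of sSEB lay in 1 cell, and the ratio ran from 2.61 to 4.97 under 13 other settings. *Elovl1* was lower in sSEB on the strength of 2 UMIs (22.0 against 81.6 CPM, log2 −1.89, −4.94 to −0.04), a call kept under 8 of 13 other settings.

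In PG 6 members had enough UMIs, with 1 higher in pSEB and 3 lower, beside 7.02% and 26.4% of 13576 genes. *Elovl3* had enough through its level in pSEB alone, and *Elovl4* through that of the other cells. *Elovl3* was again the member that stood out, at 5.57 against 0.228 CPM (log2 4.61, 2.58 to 7.75), a call kept under 12 of 13 other settings (2.72 to 5.41). *Elovl4* was at 0 against 56.0 CPM (log2 at most −6.14), *Elovl7* at 0.795 against 20.3 CPM (log2 −4.67, −6.96 to −3.10) and *Elovl6* at 2.12 against 7.52 CPM (log2 −1.83, −3.10 to −0.76). The *Elovl6* call was kept under 12 of 13 other settings (−2.92 to −0.93) and lost with the mean over cells. *Elovl6* was thus highest in the sebocytes of skin, while in PG the sebocytes had less than the other cells. Whether the effect itself differs between the libraries was not tested. The differences of *Elovl1* (43.0 against 37.8 CPM, log2 0.18, −0.10 to 0.46) and *Elovl5* (6.89 against 10.5 CPM, log2 −0.61, −1.29 to 0.04) were within counting error.

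The level was also taken along the sebocyte marker share, over all kept cells of a library. This share is the score of the gate, so the last 2 bins hold all gated sebocytes and are not a separate result. In skin *Elovl6* stood at 31.4 CPM in cells with under 5 marker UMIs per 10000, at 46.8 and 55.2 CPM in the next bins, at 176 CPM between 20 and 40, at 680 CPM between 40 and 80 and at 5289 CPM above 80, where the last 2 bins held 16 and 15 cells, some of which missed the gate by the number of markers or as ambiguous. In PG the same bins stood at 10.3, 8.07, 6.20, 3.52, 4.76 and 1.15 CPM, over 405 and 431 cells in the last 2. Every skin bin lay above every PG bin. *Elovl3* reached 379 CPM in skin and 8.78 CPM in PG above 80, and *Elovl1* was at 82.2 CPM in the first and 12.6 CPM in the last bin of skin, and at 47.0 and 53.8 CPM in those of PG.

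**Figure D2:**
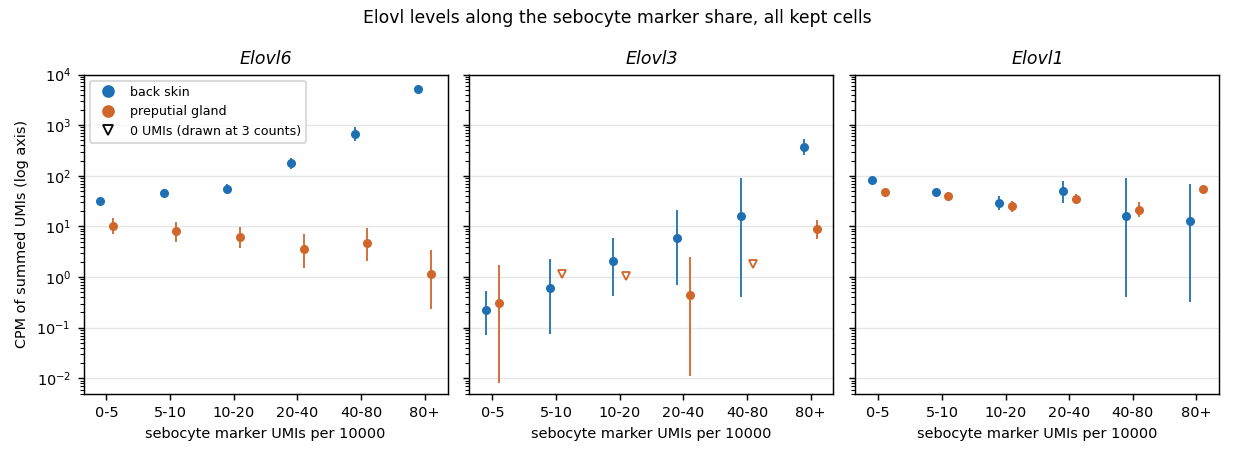
CPM of summed UMIs (log axis) of *Elovl6*, *Elovl3* and *Elovl1* in all kept cells of back skin and PG, binned by sebocyte marker UMIs per 10000. Bars are exact 95% Poisson intervals, and open triangles mark bins with 0 UMIs at the level of 3 counts. *Elovl6* runs from 31.4 to 5289 CPM in skin and from 10.3 to 1.15 CPM in PG.

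The cells of each gate were also split at the median share of 5 basal keratin and basement membrane markers. The other measures did not order the parts alike. In PG the keratin-low cells had more sebocyte marker UMIs (145 against 116 per 10000) and *Plin2* (1216 against 1038 CPM) and less *Awat2* (420 against 1029 CPM), while in skin the keratin-low cells had less of all 3 (141 against 197 per 10000, 947 against 2079 CPM and 30.6 against 120 CPM). In PG, 333 keratin-low and 334 keratin-high cells were compared, and of 3 members with enough UMIs 1 was lower and 0 were higher in the keratin-low part, beside 3.57% and 0.617% of 9880 genes. *Elovl3* had 1 UMI in the keratin-low and 20 in the keratin-high cells (0.505 against 11.2 CPM, log2 −4.47, −9.84 to −1.82), a call that was lost when cells with over 5% mitochondrial UMIs were left out. It had enough UMIs through the keratin-high part alone, so it could be called lower only. *Elovl1* was at 49.5 and 35.7 CPM, a ratio under 2-fold. In skin the parts held 8 and 9 cells, and *Elovl6* was at 3209 CPM in the keratin-low and 5705 CPM in the keratin-high part (log2 −0.83, −1.16 to −0.51). This ratio was not called, and under 10 other settings it ran from −0.96 to 3.53, so its direction is not settled. Of 4 members 2 were called higher in the keratin-low part, beside 4.19% of 1289 genes higher and 3.65% lower, and both calls were lost without the 2 cells rich in *Elovl4*. These were *Elovl4* (log2 1.26) and *Elovl5* (log2 3.70), of which *Elovl5* had enough UMIs through the keratin-low part alone and could be called higher only.

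In the keratinocyte layers of skin, most elongase transcripts were higher in the upper layers than in the basal layer. Of 5 members with enough UMIs, 4 were higher in the 1261 suprabasal than in the 3890 basal keratinocytes and 0 lower, beside 7.01% and 18.7% of 13374 genes. *Elovl4* went from 7.21 to 318 CPM (log2 5.46, 5.13 to 5.80), and was found in 618 suprabasal and 75 basal cells. *Elovl1* went from 31.0 to 139 CPM (log2 2.16, 1.97 to 2.35), *Elovl6* from 16.0 to 64.9 CPM (log2 2.02, 1.75 to 2.29) and *Elovl7* from 28.3 to 63.3 CPM (log2 1.16, 0.93 to 1.39). *Elovl5* was not called, with 8.86 and 7.36 CPM (log2 −0.27, −0.85 to 0.29).

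The 75 granular keratinocytes, the last living layer, carried the highest *Elovl1* level of any class, 964 CPM (888 to 1045), with UMIs in 67 of 75 cells. The comparisons of granular, duct, hair matrix and inner root sheath cells with basal or suprabasal cells were added after the data had been seen. Against basal cells 3 of 5 members were higher and 0 lower, beside 13.6% and 29.8% of 10247 genes, *Elovl4* at 478 CPM (log2 6.05, 5.69 to 6.43), *Elovl1* (log2 4.96, 4.76 to 5.15) and *Elovl6* at 146 CPM (log2 3.19, 2.81 to 3.57). Against suprabasal cells 2 were higher and 1 lower, beside 9.78% and 18.8% of 9268 genes. *Elovl1* rose a further 2.80 (2.64 to 2.96) and *Elovl6* 1.17 (0.82 to 1.51) on the log2 scale, *Elovl4* differed by under 2-fold (0.59, 0.41 to 0.77), and *Elovl7* fell by 1.20 to 27.6 CPM. The *Elovl6* and *Elovl7* calls against suprabasal cells were each kept under 7 of 9 other settings. Among these 3 layers *Elovl7* thus peaked in the suprabasal and *Elovl1* in the granular cells. The granular cells were also the deepest class, with a median of 7897 UMIs.

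Many genes that use very long chains were higher in the granular cells as well. Of the 11 genes listed for ceramide and acylceramide synthesis, 10 had enough UMIs in the granular to basal ratio. Of these, 6 were higher and 2 lower, beside 13.6% and 29.8% of 10247 genes. The median log2 ratio of the 10 was 2.48, beside −0.62 over all genes. The fatty acid hydroxylase *Cyp4f39* rose from 1.10 to 79.4 CPM (log2 6.18), the acyltransferase *Pnpla1* from 0.639 to 30.8 CPM (log2 5.59), the lipid transporter *Abca12* from 10.7 to 258 CPM (log2 4.59), the glucosylceramide synthase *Ugcg* from 11.9 to 215 CPM (log2 4.18), and the ceramide synthase *Cers3* from 6.85 to 82.7 CPM (log2 3.59). The sixth, the lipase activator *Abhd5*, rose by 1.37. *Cers6* and *Cers4* were lower. *Cyp4f39* and *Pnpla1* had enough UMIs through the granular cells alone, so they could be called higher only. Of the partners in the elongation cycle, 1 of 4 was higher, beside 13.6% of all genes. This was the dehydratase *Hacd2* (36.1 and 90.8 CPM, log2 1.33), whereas *Tecr*, *Hsd17b12* and *Hacd3* were not called.

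**Figure D3:**
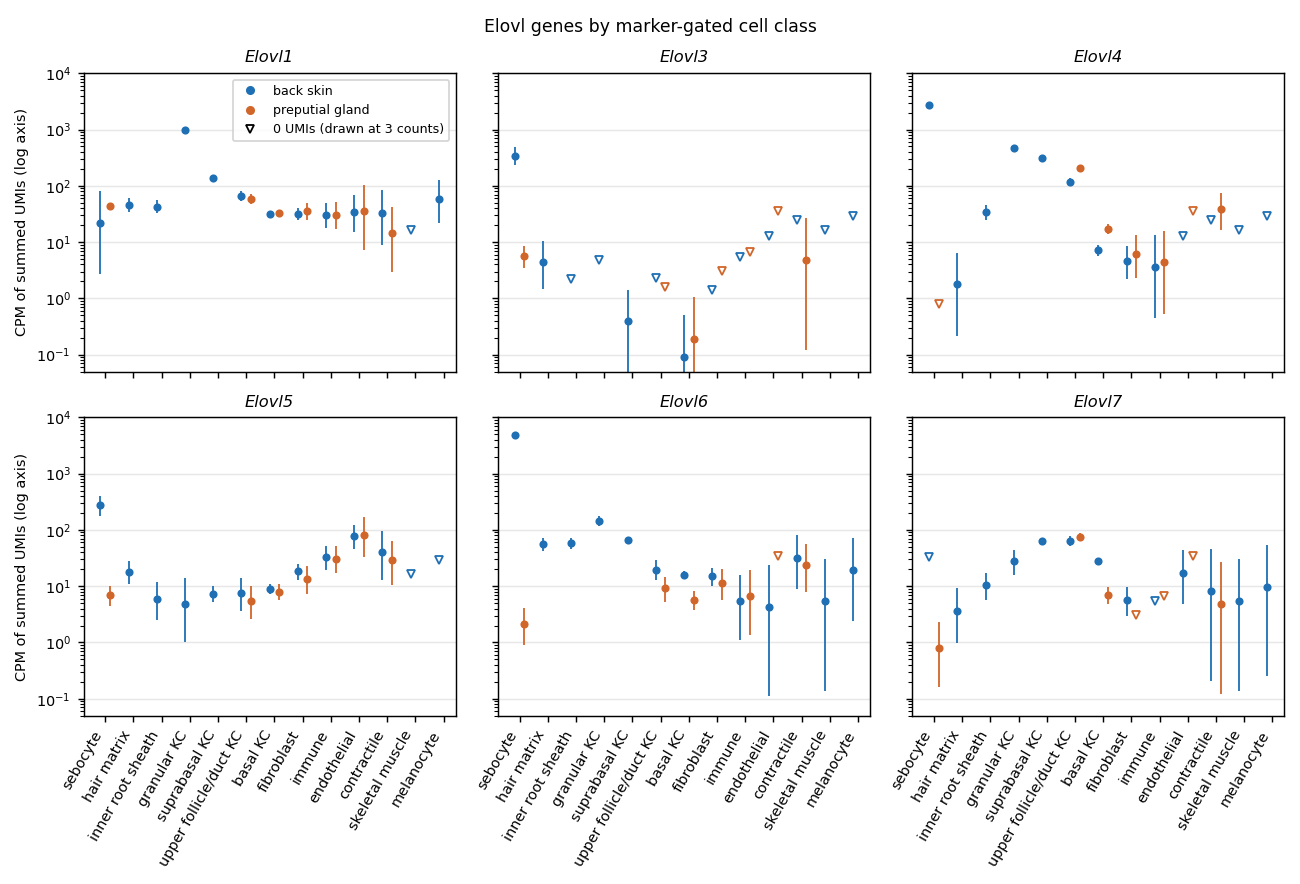
CPM of summed UMIs (log axis) of 6 members in 13 marker-gated classes of back skin and PG, with exact 95% Poisson intervals, and open triangles at the level of 3 counts for classes with 0 UMIs. KC is keratinocyte. *Elovl6* peaks in skin sebocytes (4807 CPM), *Elovl1* in granular keratinocytes (964 CPM), and *Elovl4* is at 206 CPM in the upper follicle and duct cells of PG.

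PG held no granular, hair matrix or inner root sheath cells by these gates and 5 suprabasal cells, in which no member had enough UMIs (15.5% of 1319 genes were higher than in basal cells and 5.16% lower). A differentiated class that both tissues held was the keratinocytes of upper follicle and duct, with 410 cells in skin and 416 in PG. Its median suprabasal marker share was 64.7 per 10000 in skin and 80.6 in PG, where the suprabasal markers *Krtdap* and *Calm4* were among its leading genes. Cells that met both gates were placed by the higher share. Cells of PG with suprabasal markers are thus counted in this class as well, and its levels cannot be assigned to duct cells alone. Against basal cells, 3 of 5 members were higher and 0 lower in skin, beside 6.94% and 10.3% of 11764 genes, and in PG 2 of 5 were higher and 0 lower, beside 7.36% and 22.3% of 11713 genes. *Elovl4* rose to 117 CPM in skin (log2 4.02, 3.62 to 4.43) and to 206 CPM in PG (log2 3.58, 3.25 to 3.93), and was found in 86 and 205 cells. *Elovl7* rose to 64.0 CPM in skin (log2 1.18, 0.81 to 1.53) and to 75.2 CPM in PG (log2 3.43). *Elovl1* was higher in skin (67.0 CPM, log2 1.11) and by under 2-fold in PG (58.5 CPM, log2 0.86). In PG the duct cells carried 660 family UMIs (355 CPM) against 220 (58.3 CPM) in pSEB.

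In the growing hair follicle, which was seen in skin alone, *Elovl6* was raised over basal cells in the 265 hair matrix cells (55.4 CPM, log2 1.79, 1.35 to 2.22) and in the 338 inner root sheath cells (58.4 CPM, log2 1.87, 1.47 to 2.26). Of 5 members, 2 were higher and 2 lower in hair matrix, beside 14.9% and 17.3% of 11628 genes, and 2 higher and 1 lower in inner root sheath, beside 13.5% and 16.3% of 11878 genes. *Elovl7* was lower in both, at 3.58 and 10.3 CPM, and *Elovl4* was lower in hair matrix (1.79 CPM) and higher in inner root sheath (34.0 CPM, log2 2.24). In the hair matrix comparison *Elovl4* had enough UMIs through the basal cells alone, so it could be called lower only. *Elovl5* was just past 2-fold in hair matrix (17.9 against 8.86 CPM), a call kept under 5 of 9 other settings. For *Elovl6*, suprabasal, inner root sheath and hair matrix cells followed the granular cells in the order of levels and did not differ from one another beyond counting error.

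Outside the sebocytes, differences between the libraries were smaller. In fibroblasts 5 members had enough UMIs and 0 were called in either direction, beside 9.49% of 11289 genes higher and 6.73% lower. *Elovl6* had 32 UMIs in skin and 11 in PG fibroblasts (log2 −0.41, −1.55 to 0.62), and *Elovl1* was at 31.5 and 36.0 CPM. *Elovl7* had 12 UMIs in skin and 0 in PG fibroblasts (log2 at most −0.87). It stayed uncalled under 4 of 9 other settings (−3.1 to 0.48), so a difference is not settled for it. No member was called in immune, endothelial or contractile cells, where 2, 2 and 1 members had enough UMIs. Beside these, 7.31% of genes were higher and 14.3% lower in PG immune cells, 9.45% and 5.09% in endothelial cells, and 7.77% and 13.4% in contractile cells. *Elovl5* was at 78.2 CPM in endothelial cells of skin (18 UMIs) and at 81.7 CPM in those of PG (7 UMIs; log2 0.06, −1.44 to 1.39). These were the next levels after sSEB, which stood at 72.8 CPM without the 2 cells with the most *Elovl5* UMIs. The skin endothelial level did not differ beyond counting error from that of skin contractile cells (40.3 CPM, 5 UMIs, log2 0.96, −0.53 to 2.74). In upper follicle and duct cells *Elovl6* was lower in PG, at 9.13 against 19.6 CPM (log2 −1.10, −2.07 to −0.16, called under 4 of 9 other settings), the 1 call among 5 members beside 11.9% of 10153 genes higher and 18.9% lower, and *Elovl4* was at 206 and 117 CPM (log2 0.82, 0.55 to 1.10). In basal keratinocytes 1 member was higher and 2 lower in PG, beside 16.6% of 13656 genes in each direction. These were *Elovl4* (17.2 against 7.21 CPM, log2 1.26, not called at 0.93 with clusters in place of the gate), *Elovl6* (5.61 against 16.0 CPM, log2 −1.51, −2.13 to −0.94) and *Elovl7* (6.97 against 28.3 CPM, log2 −2.02, −2.56 to −1.52). The basal marker share was lower in the PG class as well, with a median of 54.6 per 10000 against 211 in skin, and 213 of the 1763 PG cells lay within 20% of the limit. The median sebocyte marker share was 11.4 per 10000 in the PG basal class and 0 in that of skin. The part of these in the ratios was not tested. *Elovl6* was thus lower in PG in each of the epithelial classes compared, by 11.15 in sebocytes and by 1.10 and 1.51 in the others on the log2 scale.

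**Figure D4:**
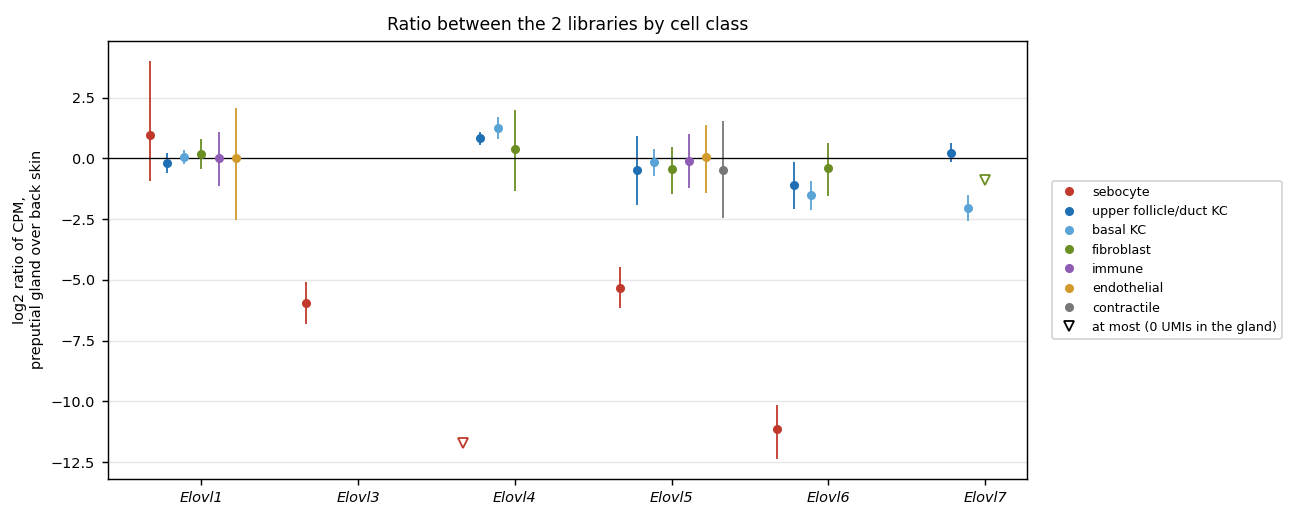
Log2 ratio of CPM, PG over back skin, of 6 members in 7 cell classes, with exact 95% intervals, where enough UMIs were counted, and open triangles for ratios that are at most the value drawn because PG was at 0 UMIs. KC is keratinocyte. The sebocyte ratios of *Elovl6* (−11.15), *Elovl4* (at most −11.73), *Elovl3* (−5.94) and *Elovl5* (−5.32) lie below those of the other classes, which are between −2.02 and 1.26.

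The enzymes that complete the elongation cycle differed by under 2-fold between the tissues or were not called. Of these 7 genes 5 had enough UMIs for the ratio of pSEB over sSEB, 0 were called, and their median log2 ratio was 0.04, beside −0.15 over all genes. *Tecr* was at 1540 CPM in sSEB and 1586 CPM in pSEB (log2 0.04, −0.20 to 0.30), *Hsd17b12* at 1606 and 909 CPM (log2 −0.82, −1.06 to −0.57), and *Hacd2* at 1078 and 1995 CPM (log2 0.89, 0.60 to 1.19). The intervals of the last 2 leave out equal levels, but the ratios were under 2-fold. In sSEB 4 of 4 were higher than in the other cells of the library, beside 15.7% of all genes, *Hsd17b12* by 4.74, *Hacd2* by 4.54, *Tecr* by 3.09 and *Hacd3* by 2.78 on the log2 scale. In pSEB 3 of 6 were higher, beside 7.02% of all genes, *Hacd2* by 4.20, *Hsd17b12* by 3.71 and *Tecr* by 2.28. The dehydratase *Hacd4* was lower (1 UMI in pSEB, log2 −5.32), but it had enough UMIs through the other cells alone and could be called lower only.

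Fatty acid synthesis, which supplies the palmitate, was present in both groups. *Fasn*, the synthase itself, was at 429 CPM in sSEB and 374 CPM in pSEB (log2 −0.20, −0.66 to 0.30), and 3 of 7 genes with enough UMIs were lower in pSEB and 0 higher, beside 13.2% and 7.33% of all genes. Their median log2 ratio was −0.20, against −0.15 over all genes. *Acss2*, which makes acetyl-CoA from acetate, was at 671 and 35.5 CPM (log2 −4.24), *Acacb*, an acetyl-CoA carboxylase, fell by 2.34 and *Acly*, which makes acetyl-CoA from citrate, by 1.17. Against the other cells, 5 of 6 were higher in sSEB, beside 15.7% of all genes, and 7 of 8 in pSEB, beside 7.02%. The other gene of the 8, *Thrsp*, was lower, with 0 UMIs in pSEB and 23 in the other cells (log2 at most −1.72), and could be called in that direction only.

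Of the desaturases and hydroxylases that act on the same chains, 2 of 6 were higher and 3 lower in pSEB, beside 7.33% and 13.2% of all genes. Their median log2 ratio was −1.32. The delta-6 and delta-5 desaturases of polyunsaturated chains were the higher ones, *Fads2* with 2593 UMIs in pSEB and 0 in sSEB (log2 at least 4.38) and *Fads1* with 288 and 0 (at least 1.21). *Scd3*, which forms monounsaturated chains, was at 253 CPM in sSEB and 11.9 CPM in pSEB (log2 −4.41), the fatty acid 2-hydroxylase *Fa2h* fell by 3.04 and the ceramide desaturase *Degs1* by 1.64. *Fads2* and *Fads1* had enough UMIs through pSEB alone, and *Scd3* through sSEB alone. Each of them could thus be called in that direction only.

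Among the users of the chains, *Cers4*, a ceramide synthase, was at 1386 CPM in sSEB and 19.9 CPM in pSEB (log2 −6.12, −6.56 to −5.70). It was the 1 call among 2 ceramide genes with enough UMIs, beside 13.2% of all genes lower. Of the wax and triglyceride genes 2 of 6 were higher and 2 lower in pSEB, with a median log2 ratio of 0.01, beside the same 7.33% and 13.2% of all genes. The fatty acyl reductases, which make the alcohols of waxes and ether lipids, ran in opposite directions, *Far2* at 451 CPM in sSEB and 0.265 in pSEB (log2 −10.73, −16.07 to −8.17) and *Far1* with 1 UMI in sSEB and 1178 in pSEB (log2 4.83, 2.35 to 10.13). *Agps*, which forms the ether bond, had 3830 UMIs in pSEB and 0 in sSEB (log2 at least 4.94), and *Dgat1* was lower (log2 −1.49). *Cers4* and *Far2* had enough UMIs through sSEB alone, and *Far1* and *Agps* through pSEB alone. Each of them could thus be called in that direction only. Of 8 regulators 2 were higher, *Srebf1* (143 and 361 CPM) and its escort *Scap*, and 2 lower, the anchors *Insig1* (220 and 65.0 CPM) and *Insig2*, with a median of 0.05. Beside these stand the same 7.33% and 13.2% of all genes. All these lists were compiled with earlier results of these data known.

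Across 20 classes of both libraries with at least 10 cells, the genes whose level followed each member most closely among 7370 candidates were ranked by Pearson's r of log2(CPM + 10). The points share 2 libraries and a class with high levels can set the value, so r is a description. For *Elovl6* these were *Pmvk*, a kinase of the mevalonate pathway (r = 0.917), *C130079G13Rik* (0.894) and *Tchhl1* (0.870), each highest in sSEB. For *Elovl3* they were *Serpina3j* (0.988), *Gm13178* (0.987) and the wax synthase *Awat1* (0.986). *Elovl1* was followed by the corneodesmosome gene *Cdsn* (0.895), *Spag1* (0.886) and the lipoxygenase *Alox12b* (0.877), all highest in granular cells, and *Elovl4* by *Nudt17* (0.946), the cornified envelope gene *Ivl* (0.923) and the acyl-CoA synthetase *Acsbg1* (0.908). For *Elovl5* they were *Lpcat3* (0.836), *Picalm* (0.797) and *Cd36* (0.783), and for *Elovl7* *Lypd3* (0.914), *Tmem45a* (0.882) and *Skint1* (0.876).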

How the data were processed

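The authors dissociated the tissues with a whole skin kit, prepared a droplet library from polyA RNA per tissue (1 kit for both, 3′ v3.1, per the labels, although the barcode lists differ in size) and deposited raw UMI counts per gene and barcode, made with Cell Ranger 4 (file header) on mm10 (submitters' notes), with no filter on barcodes. The annotation release is not given in the sources used here. Barcodes with at least 500 genes, 1000 UMIs and at most 10% mitochondrial UMIs were kept. Total depth after these limits was 27407186 UMIs for back skin and 15270076 for PG.

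UMIs were summed per class and given as CPM with exact Poisson intervals, and ratios with exact binomial (Clopper-Pearson) intervals, both at 95%. A group at 0 was set to 3 counts, which gives a bound. Ratios needed 10 UMIs over both groups and a depth at which the higher level would give 3 UMIs in the smaller group. The sebocyte markers were *Scd1*, *Mgst1*, *Cidea*, *Awat2*, *Soat1*, *Pparg* and *Mc5r*, while *Apoc1* was dropped as unspecific after its levels were seen. Other classes needed 3 markers, or 2 for immune, endothelial, contractile and hair matrix cells. Doublets were left in and removed in an alternative. The named genes were the 7 members, 6 lists of related genes and the 3 genes most like each member. Members and lists were chosen with earlier results of these data known. Calculations were checked on simulated data and used Python 3.11.15, numpy 2.4.6, scipy 1.17.1, pandas 2.3.3, igraph 0.11.9 and leidenalg 0.10.2, with gene positions from GENCODE (GRCm38).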

Additional observations from a re-analysis of the deposited data

Results flagged for a closer look

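*Elovl6* and *Elovl4* had ratios of opposite sign in the 2 libraries when sebocytes were set against the other gated cells. For *Elovl6* the log2 ratio was 7.15 in back skin and −1.83 in PG, and for *Elovl4* it was 4.88 in back skin and at most −6.14 in PG. With 1 library per tissue the difference between these ratios was not tested, and the skin value of *Elovl4* rests on 2 cells.

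The 232 skin barcodes left out for over 10% mitochondrial UMIs had higher CPM of *Elovl3*, *Elovl4*, *Elovl5* and *Elovl6* than the kept skin cells. *Elovl4* stood at 636 CPM in them and at 90.7 CPM in the kept cells, and *Elovl6* at 466 and 52.9 CPM. *Elovl5* stood at 90.4 and 11.9 CPM, and *Elovl3* at 46.6 and 1.57 CPM. *Elovl1* (60.3 and 74.5 CPM) and *Elovl7* (35.6 and 29.9 CPM) were within counting error, and *Elovl2* had 0 UMIs in the left-out barcodes. Without the 8 barcodes in the sebocyte gate the values of the left-out barcodes were 147 CPM for *Elovl4*, 127 for *Elovl6*, 11.5 for *Elovl5* and 5.76 for *Elovl3*.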

How the results depend on the processing

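No paired analysis was possible because each tissue is 1 library and the labels give no replicate numbers. Besides 10 other settings, 3 were chosen after seeing the data (a sebocyte limit divided by 2, and sSEB without the 2 cells rich in *Elovl4* or without those led by *Soat1*). The comparisons of granular, duct, hair matrix and inner root sheath cells were also chosen then. Of 86 counts of called members under an alternative, 84 were within 1.5 times the reported count. Without the 2 cells rich in *Elovl4*, the 2 members called higher in keratin-low sSEB became 0, and *Elovl4* in sSEB over the other cells turned from 4.88 to −2.82. With at most 5% mitochondrial UMIs, the 1 member called in keratin-low pSEB became 0, and *Elovl4* in keratin-low over keratin-high sSEB turned from 1.26 to at most −3.70. The cause was not tested beyond the cells left out. Of 42 called ratios, 27 kept their call under every alternative run and 15 lost it or gave no value under at least 1, of which 2 reversed. The ratio of pSEB over sSEB ranged from −12.40 to −9.93 for *Elovl6*, from −8.11 to −5.18 for *Elovl3* and from −5.54 to −3.19 for *Elovl5*. *Elovl4* of PG basal cells ranged from 0.93 to at least 5.28, and *Elovl3* of pSEB over other PG cells was under the minimum with at most 5% mitochondrial UMIs (5 and 2 UMIs, 2.72). The lower *Elovl6* of PG duct cells kept its call in 4 of 9 alternatives (−1.67 to −0.73). Counting 17 sSEB from 1 library limits every skin sebocyte value.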
